A study of Mus musculus with 6 samples.

Results

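Chemokines and their receptors were examined in livers of mice whose Cyr61 gene had been targeted. The group takes every gene whose symbol begins with Ccl, Cxcl, Ccr, Cxcr or Ackr followed by a number, together with Cx3cl1, Cx3cr1, Xcl1, Xcr1 and Ccrl2. These were 62 of the 24411 genes in the tables, 39 ligand genes and 23 receptor genes. Bulk liver RNA was sequenced from 3 libraries with the genotype Cyr61KO, called Cyr61 KO here, and from 3 with the genotype Control. Both groups were male mice aged 24 weeks that carried the strain name Cyr61fl/fl and were fed a NASH diet, a diet that induces fatty liver inflammation, for 12 weeks. The labels name neither the recombinase nor the cells in which Cyr61 was removed, and whether each library is a separate animal is not said. The p-values therefore rest on library-to-library spread, which may be technical.

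Chemokines are small secreted proteins that bind G protein-coupled receptors on leukocytes and draw these cells along gradients into tissue. They are named for the spacing of their first cysteines, as CC, CXC, CX3C and C chemokines, and the atypical receptors bind chemokines without coupling to G proteins and mostly clear them. In the inflamed liver, Ccl2 and its receptor Ccr2 are known for bringing in monocytes, Cxcl1 and Cxcl2 for neutrophils, and Cxcl9 and Cxcl10 for T cells that carry Cxcr3. Cyr61, also called Ccn1, encodes a secreted matrix-associated protein.

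Cyr61 itself had 3.77, 2.66 and 3.14 CPM in the Cyr61 KO libraries, against 15.6, 32.4 and 27.8 CPM in the Control libraries. CPM is the count scaled to library depth with edgeR's TMM factors, and it compares libraries, not genes of unequal length. The libraries held 31133292 to 40377742 gene counts in Cyr61 KO and 21032878 to 34827903 in Control. In 1 library, Control replicate 2, genes took 50.9% of all reads, where the other 5 libraries reached 82.8% to 87.6%. It held the highest of the 6 values in 33 of the 41 chemokine and receptor genes tested, against 34.9% of all tested genes. Values without it are therefore set beside the results below, and beside the counts of calls that it moves.

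Of the 62 genes, 41 passed the filter on low counts and were tested, and 21 were not. Of the 41, 8 were lower in Cyr61 KO livers at an adjusted p below 0.05 in edgeR's quasi-likelihood test, where 2.37% of all 13563 genes tested were lower. By edgeR 0 of the 41 were higher, where the share of all genes was 1.07%. At an unadjusted p under 0.05, 29 were lower and 0 higher, against 16.1% and 11.3% of all genes, and DESeq2 called 0 higher too. The 8 genes were the ligand genes Cxcl9, Cxcl10, Cxcl14, Cxcl16, Cx3cl1, Ccl9 and Ccl20 and the receptor gene Cx3cr1. A further 17 genes, all with a negative fold change, had an adjusted p between 0.05 and 0.1. The share of all genes in that band was not counted, so these 17 cannot be set against it. The median log2 fold change (Cyr61 KO over Control) of the 41 was -2.12, or -1.34 without Control replicate 2, against -0.03 for all genes tested. In 27 of the 41 every Cyr61 KO library was below every Control library, where 17.9% of all tested genes showed this, and in 1 every Cyr61 KO library was above, against 17.3%. A gene that passed the filter only through the group where it is high had to differ, so these counts describe the tested genes and not all 62. Among the called genes Ccl20 passed in this way, as did Xcl1 and Cxcl2 among those not called. Among the Cyr61 KO libraries, replicate 3 was the highest in 32 of the 41. The count of called genes moved with single libraries. It was 0, 0 and 14 without Cyr61 KO replicates 1, 2 and 3, and 1, 2 and 23 without Control replicates 1, 2 and 3. Where Cyr61 KO replicate 1 or 2 was left out, 25 and 26 of the 43 genes then tested had an unadjusted p under 0.05, against 25.5% and 15.2% of all genes. DESeq2 called 28 of the 41 lower, where it called 10.2% of all genes lower. With libraries scaled by their totals alone, edgeR called 0 of the 41. In that setting 29 had an unadjusted p under 0.05, against 27.2% of all genes.

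**Figure D1:**
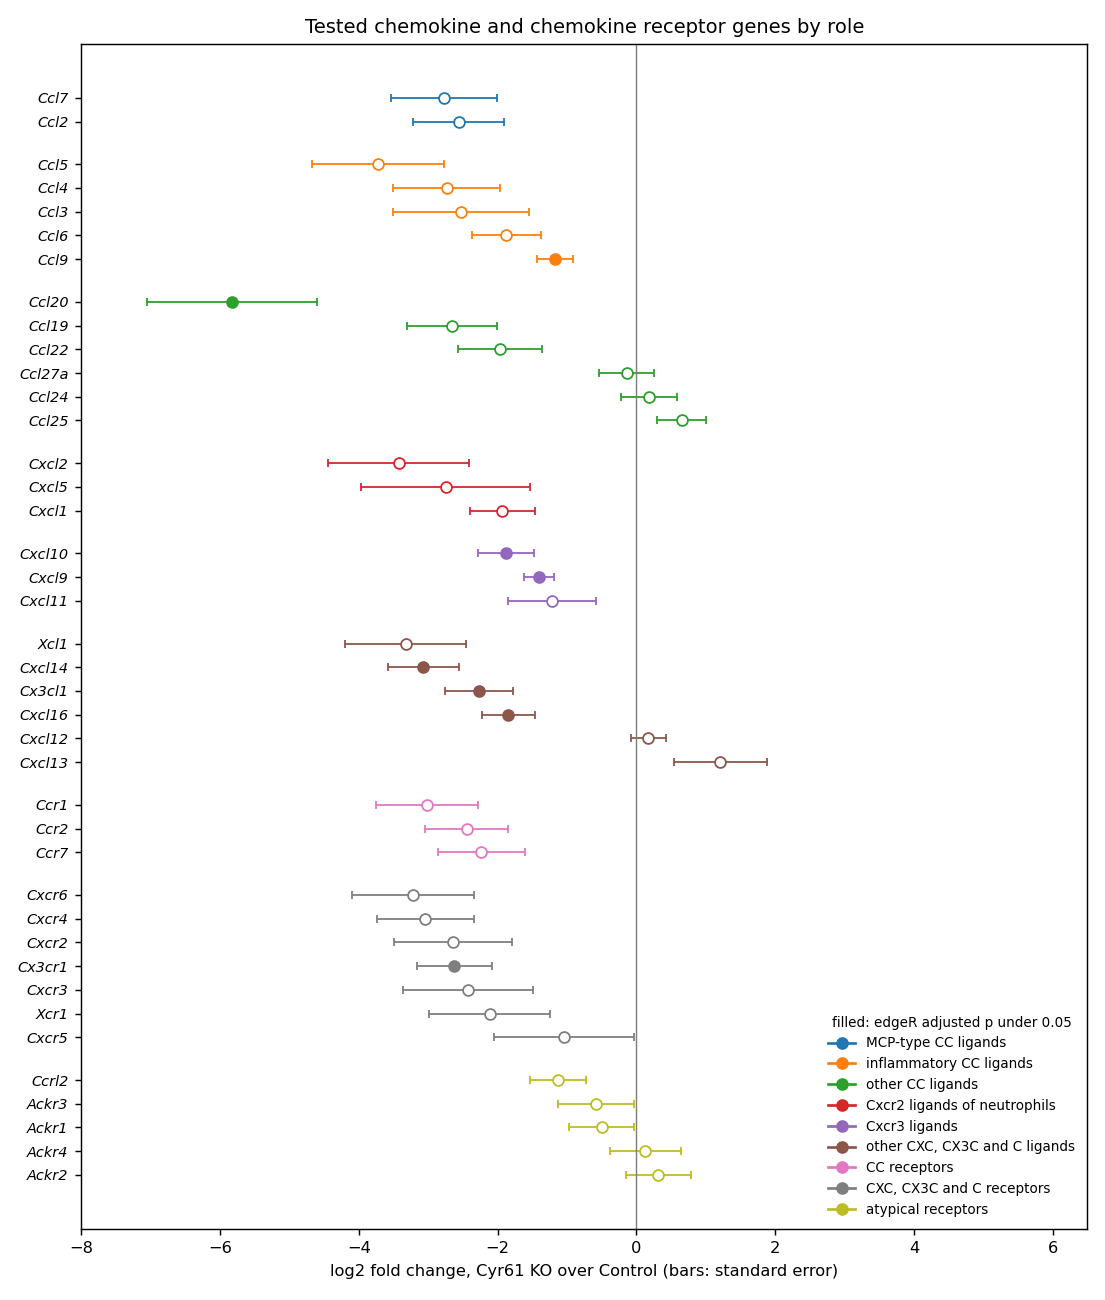
Log2 fold change of Cyr61 KO over Control for 40 of the 41 tested genes, grouped by role, with bars of 1 standard error. Filled points passed the edgeR threshold. Of the 40 points, 34 lie left of 0 and 6 lie right of it, and the 8 filled points all lie left of it.

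The ligands of Cxcr3, a receptor of activated T cells, are encoded by Cxcl9, Cxcl10 and Cxcl11, which interferon induces. GENCODE M21 types Cxcl11 as a polymorphic pseudogene. Cxcl9 had 8.05, 7.27 and 9.50 CPM in Cyr61 KO livers, against 22.6, 25.1 and 18.1 CPM in Control livers. The groups stood well apart, with 8.28 ± 1.13 and 21.9 ± 3.54 CPM (mean ± SD, n = 3 each). This was a log2 fold change of -1.41 ± 0.22 (SE, edgeR adjusted p = 0.0237). Cxcl10 had 3.18, 3.55 and 4.40 CPM in Cyr61 KO livers, against 15.2, 19.4 and 6.44 CPM in Control livers. Its Cyr61 KO values lay close together, and Control replicate 3 was the nearest to them. The log2 fold change was -1.88 ± 0.40 (SE, edgeR adjusted p = 0.0434). Cxcl11 was low and overlapped, at 0.475, 0.780 and 0.897 CPM in Cyr61 KO livers, against 0.871, 3.27 and 0.897 CPM in Control livers (log2 fold change -1.22, edgeR adjusted p = 0.245, and -0.28 without Control replicate 2). The receptor gene Cxcr3 was at 0.386, 0.106 and 0.757 CPM in Cyr61 KO livers, against 1.10, 5.23 and 0.557 CPM in Control livers. The groups overlapped. The log2 fold change was -2.43 with Control replicate 2 and -0.94 without it, and neither passed (edgeR adjusted p = 0.142 and 0.462). Cxcl9 still passed without Control replicate 2 (-1.27, edgeR adjusted p = 0.0395), but it was lost on omitting Cyr61 KO replicate 1 or 2 (0.0797 and 0.118) or Control replicate 1 (0.0559). Cxcl10 was lost on omitting Cyr61 KO replicate 1 or 2 (0.111 and 0.181) and on omitting Control replicate 1 or 2 (0.0769 and 0.0879).

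**Figure D2:**
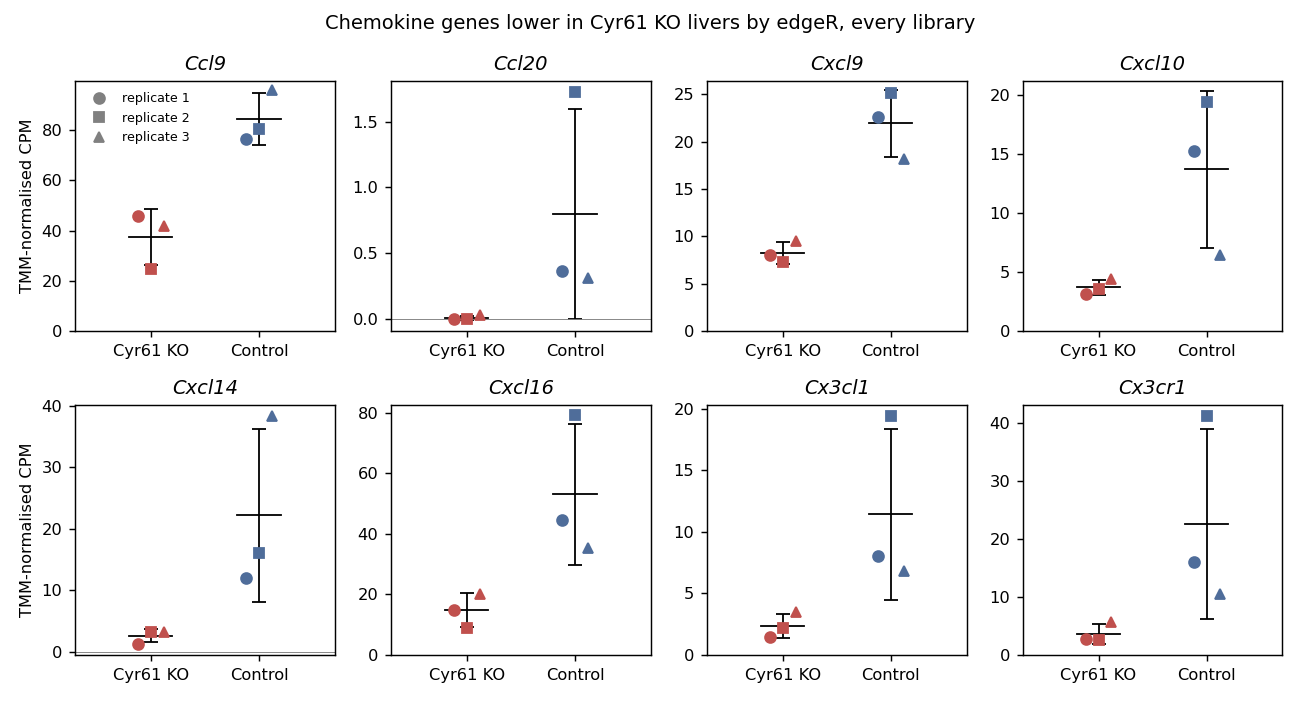
TMM-normalised CPM of the 8 genes called lower, with each library as a point, the mean as a line and 1 SD as bars (n = 3 per group). In each panel the 3 Cyr61 KO points lie below the 3 Control points. Control replicate 2, a square, is the highest in 6 of the panels, and Control replicate 3, a triangle, is the highest for Cxcl14 and Ccl9.

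Cx3cl1, also called fractalkine, is a membrane-bound chemokine, and Cx3cr1 is its receptor on monocytes and macrophages. Both genes were lower in Cyr61 KO livers. Cx3cl1 had 1.49, 2.16 and 3.45 CPM in Cyr61 KO livers, against 8.06, 19.4 and 6.78 CPM in Control livers. Its log2 fold change was -2.27 ± 0.49 (SE, edgeR adjusted p = 0.0445). Cx3cr1 had 2.73, 2.55 and 5.64 CPM in Cyr61 KO livers, against 16.0, 41.2 and 10.4 CPM in Control livers. The highest Cyr61 KO library thus lay below the lowest Control library for ligand and receptor alike. The log2 fold change of Cx3cr1 was -2.62 ± 0.54 (SE, edgeR adjusted p = 0.0427). Without Control replicate 2 the values were -1.62 for Cx3cl1 and -1.83 for Cx3cr1, and neither passed (edgeR adjusted p = 0.0731 and 0.0636). Both also missed the threshold on omitting Cyr61 KO replicate 1 (0.111 and 0.112), Cyr61 KO replicate 2 (0.182 and 0.166) or Control replicate 1 (0.0556 and 0.0526). The gene model of Cx3cr1 (chromosome 9, 119901616 to 120069879) spans other genes on both strands, and reads that fall in exons of several genes were not counted.

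Cxcl16 encodes another membrane-bound chemokine, which also acts as a scavenger receptor, and Cxcr6 encodes its receptor on T and NKT cells. Cxcl16 had 14.9, 9.01 and 20.2 CPM in Cyr61 KO livers, against 44.7, 79.2 and 35.2 CPM in Control livers. This gave 27.8% of the Control mean and a log2 fold change of -1.85 ± 0.38 (SE, edgeR adjusted p = 0.0422). Cxcr6 had 0.475, 0.142 and 0.589 CPM in Cyr61 KO livers, against 1.35, 8.81 and 1.36 CPM in Control livers. Its groups did not overlap, but the change of -3.22 did not pass (edgeR adjusted p = 0.0757) and was -1.69 without Control replicate 2. Cxcl16 was at -1.41 without Control replicate 2 and missed the threshold there (edgeR adjusted p = 0.0744). The same held on omitting Cyr61 KO replicate 1 or 2 (0.105 and 0.152) or Control replicate 1 (0.0603).

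Cxcl14 encodes a chemokine of epithelia and stromal cells that attracts monocytes and dendritic cells. It had 1.37, 3.26 and 3.28 CPM in Cyr61 KO livers, against 12.1, 16.1 and 38.3 CPM in Control livers. The Cyr61 KO mean was 11.9% of the Control mean, and the log2 fold change was -3.07 ± 0.51 (SE, edgeR adjusted p = 0.0260). Control replicate 3, and not replicate 2, had the highest value. The change was -3.23 without Control replicate 2 and -2.40 without Control replicate 3, and both passed (edgeR adjusted p = 0.0407 and 0.0197). On omitting Cyr61 KO replicate 1 or 2 it was at -2.76 and -3.24 and missed the threshold (0.0887 and 0.104).

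Among the inflammatory CC ligand genes Ccl3, Ccl4, Ccl5, Ccl6 and Ccl9, whose products draw monocytes, macrophages and T cells, 1 of 5 was called. Ccl9, which is abundant in mouse liver and binds Ccr1, had 45.7, 24.7 and 41.8 CPM in Cyr61 KO livers, against 76.6, 80.4 and 96.0 CPM in Control livers. The log2 fold change was -1.17 ± 0.26 (SE, edgeR adjusted p = 0.0497), and the call was lost on leaving out any of the 6 libraries, with adjusted p from 0.0616 without Cyr61 KO replicate 3 to 0.205 without Cyr61 KO replicate 2. Without Control replicate 2 the change was -1.18. Its neighbour Ccl6 had 8.20, 4.75 and 19.8 CPM in Cyr61 KO livers, against 34.5, 56.8 and 28.9 CPM in Control livers, without overlap. Its change of -1.87 ± 0.49 (SE) missed the threshold (edgeR adjusted p = 0.0697) and was -1.51 without Control replicate 2. Ccl5, a chemokine gene of T and NK cells, had 1.25, 1.53 and 2.30 CPM in Cyr61 KO livers, against 7.72, 56.4 and 3.37 CPM in Control livers. Control replicate 2 stood far above the rest, and the change was -3.73 with it and -1.69 without it (edgeR adjusted p = 0.0648 and 0.0966). Ccl3 and Ccl4, inflammatory chemokines of macrophages, stood at -2.53 and -2.74 and missed the threshold (edgeR adjusted p = 0.141 and 0.0788), or at -1.33 and -2.25 without Control replicate 2. For Ccl3 the groups touched, at 0.617 CPM in Cyr61 KO replicate 3 and 0.619 CPM in Control replicate 3.

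The ligand genes of the monocyte chemoattractant type, Ccl2, Ccl7, Ccl8 and Ccl12, were below Control in their sums, with 0 of the 2 tested called by edgeR. DESeq2 called both, and the edgeR p before adjustment was under 0.05 for 2 of the 2. Ccl2 had 0.564, 0.603 and 2.33 CPM in Cyr61 KO livers, against 6.01, 11.2 and 3.62 CPM in Control livers. The groups did not overlap, and the log2 fold change was -2.56 ± 0.65 (SE, edgeR adjusted p = 0.0642). Ccl7 had 0.238, 0.0355 and 0.308 CPM in Cyr61 KO livers, against 1.32, 2.17 and 0.650 CPM in Control livers without overlap (-2.77 ± 0.76, SE, edgeR adjusted p = 0.0758). Without Control replicate 2 the values of Ccl2 and Ccl7 were -2.01 and -2.26 (edgeR adjusted p = 0.129 and 0.130). Ccl8 and Ccl12 were too sparse for the filter. Ccl8 had 1 count over the Cyr61 KO libraries and 97 over the Control libraries, 79 of them in Control replicate 2. Scaled to depth, Control was 97.6 times Cyr61 KO, with a 95% exact interval of 17.1 to 3892 that covers counting error only, and without Control replicate 2 it was 25.8 times (4.08 to 1077). Ccl12 had 2 counts in Cyr61 KO and 25 in Control, 17 of them in Control replicate 2. The ratio was 12.6 with an interval of 3.13 to 110, or 5.74 (1.15 to 55.5) without that library.

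Ccr2, the monocyte receptor for Ccl2, had 1.63, 1.60 and 4.43 CPM in Cyr61 KO livers, against 8.74, 26.1 and 7.15 CPM in Control livers. The groups did not overlap, but the change of -2.44 ± 0.60 did not pass (SE, edgeR adjusted p = 0.0600) and was -1.61 without Control replicate 2. Ccr1, found on neutrophils and macrophages, and Ccr7, which guides dendritic cells and T cells to lymph nodes, were at -3.02 and -2.23 (edgeR adjusted p = 0.0603 and 0.0777). Without Control replicate 2 Ccr1 and Ccr7 were at -2.25 and -1.45. In these 3 CC receptor genes every Cyr61 KO library thus lay below every Control library, and 0 passed by edgeR. All 3 had an unadjusted edgeR p under 0.05 and passed by DESeq2. In bulk liver, fewer cells of a type and less RNA per cell cannot be told apart.

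The ligands of Cxcr2, which draw neutrophils, are encoded by Cxcl1, Cxcl2 and Cxcl5 among the tested genes, and 0 of 3 passed. Cxcl1 had 1.49, 1.42 and 1.68 CPM in Cyr61 KO livers, against 5.28, 9.57 and 2.75 CPM in Control livers. The Cyr61 KO values were nearly alike, at 1.53 ± 0.137 CPM (SD, n = 3), while the Control values spread over 5.87 ± 3.45 CPM (SD, n = 3). The log2 fold change was -1.94 ± 0.47 (SE, edgeR adjusted p = 0.0583). Cxcl2 was at -3.43 and Cxcl5 at -2.75 (edgeR adjusted p = 0.0866 and 0.184, SE 1.02 and 1.22). Cxcl5 had 0.178, 0.106 and 2.30 CPM in Cyr61 KO livers, against 2.47, 14.2 and 1.05 CPM in Control livers. Cyr61 KO replicate 3 therefore lay inside the Control range, and without Control replicate 2 the change of Cxcl5 was -0.99. Cxcl1 and Cxcl2 were then at -1.37 and -2.07. Cxcr2, the neutrophil receptor gene, was at -2.64 (edgeR adjusted p = 0.0994), or at -1.29 without that library. DESeq2 called Cxcl1, Cxcl2 and Cxcr2, the genes of these 4 whose unadjusted edgeR p was under 0.05.

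Of the other CC ligand genes 1 of 6 tested passed. Ccl20, which attracts cells that carry Ccr6, had 0, 0 and 1 counts in Cyr61 KO livers, against 13, 50 and 10 counts in Control livers. Depth-scaled, Control was 73.4 times Cyr61 KO, with a 95% exact interval of 12.8 to 2939 for counting error only (edgeR adjusted p = 0.0428), or 33.0 times (5.36 to 1360) without Control replicate 2. The Control counts were low as well, and the call was lost without Control replicate 1 or 2 (edgeR adjusted p = 0.0541 and 0.0608) and without Cyr61 KO replicates 1, 2 and 3 (0.112, 0.178 and 0.0543). Ccl20 passed the low-count filter only through the Control libraries, so its call is not independent support for a difference. Ccl19, the ligand of Ccr7, had 1.13, 0.922 and 0.617 CPM in Cyr61 KO livers, against 3.06, 11.5 and 2.35 CPM in Control livers (-2.66 ± 0.65, SE, edgeR adjusted p = 0.0591, and -1.58 without Control replicate 2). Ccl22, a ligand of Ccr4, was at -1.96 (edgeR adjusted p = 0.0918), or -1.34 without that library. Ccl27a, an epithelial ligand of Ccr10, had 7.55, 3.51 and 3.62 CPM in Cyr61 KO livers, against 4.24, 7.40 and 4.55 CPM in Control livers. The groups overlapped fully (-0.14 ± 0.40, SE, edgeR adjusted p = 0.839), and the sign turned on omitting Cyr61 KO replicate 2 or 3 or Control replicate 2. Ccl24, a ligand of Ccr3, and Ccl25, the ligand of Ccr9, were at 0.18 and 0.65 (edgeR adjusted p = 0.791 and 0.257). Ccl25 was the gene in which every Cyr61 KO library was above, at 5.20, 3.58 and 3.08 CPM in Cyr61 KO livers, against 2.84, 2.58 and 2.13 CPM in Control livers. Ccl27a lies opposite Il11ra1 and Ccl25 opposite Elavl1 in GENCODE M21, and the table used here keeps the strands apart.

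Cxcl12, the homeostatic chemokine of stromal and endothelial cells, was the ligand gene with the most reads. It had 241, 343 and 247 CPM in Cyr61 KO livers, against 247, 231 and 260 CPM in Control livers. The groups overlapped, and the log2 fold change was 0.17 ± 0.25 (SE, edgeR adjusted p = 0.683), or -0.10 with library totals as the only scaling, where the median of all genes was -0.30. Per kilobase of exon its mean level was the highest of the group in each genotype, at 33.9 RPKM in Cyr61 KO and 30.1 RPKM in Control. Ccl9 came next, at 12.3 RPKM in Cyr61 KO and 27.7 RPKM in Control. Ccl6 was at 6.08 RPKM in Cyr61 KO and 22.3 RPKM in Control, and Ccl5 at 1.76 RPKM in Cyr61 KO and 23.4 RPKM in Control. The share of all ligand CPM that came from Cxcl12 was 69.1%, 82.9% and 66.3% in Cyr61 KO libraries, against 48.9%, 34.0% and 50.1% in Control libraries. Its receptor gene Cxcr4, present on most leukocytes, had 0.594, 0.780 and 3.14 CPM in Cyr61 KO livers, against 9.13, 21.9 and 6.62 CPM in Control livers. No Cyr61 KO library reached the lowest Control library, yet the change of -3.04 ± 0.70 missed the threshold (SE, edgeR adjusted p = 0.0520) and was -2.35 without Control replicate 2. Summed over the ligand genes other than Cxcl12, the level was 107, 70.7 and 125 CPM in Cyr61 KO libraries, against 259, 447 and 258 CPM in Control libraries. Summed over the 23 receptor genes it was 18.9, 18.3 and 36.7 CPM in Cyr61 KO libraries, against 64.4, 163 and 47.8 CPM in Control libraries.

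**Figure D3:**
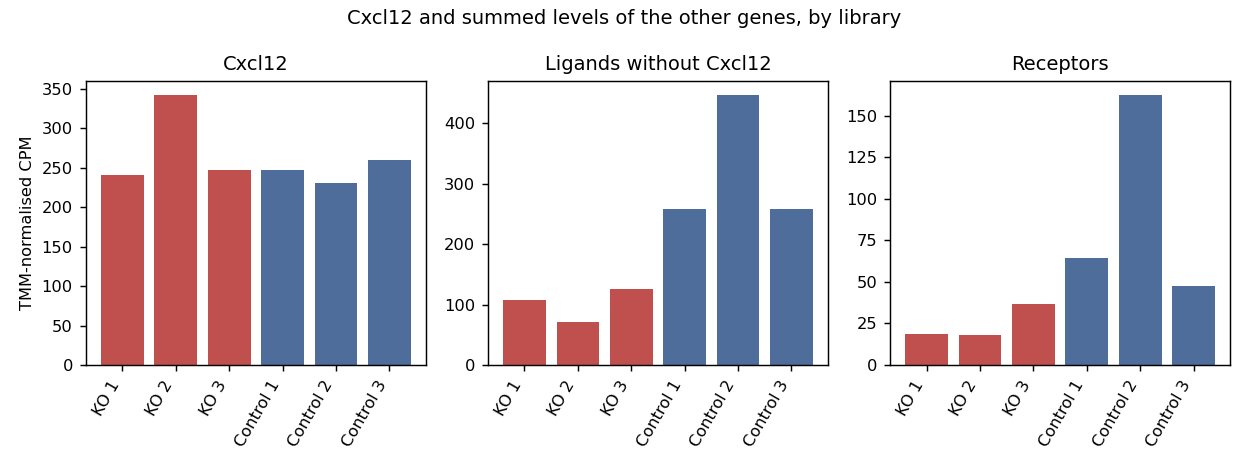
TMM-normalised CPM per library of Cxcl12, of the other ligand genes summed and of the receptor genes summed, 1 bar per library, with Cyr61 KO in red and Control in blue. The Cxcl12 bars overlap between groups, whereas the Cyr61 KO bars of both sums lie below all Control bars, and Control replicate 2 has the highest bar of both sums.

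The remaining ligand and receptor genes were of low level. Xcl1, a chemokine gene of NK and CD8 T cells, had 0.297, 0.142 and 0.140 CPM in Cyr61 KO livers, against 0.786, 4.47 and 0.681 CPM in Control livers (-3.32, edgeR adjusted p = 0.0692, and -1.87 without Control replicate 2). Xcr1, its receptor gene on cross-presenting dendritic cells, was at -2.12 (edgeR adjusted p = 0.161) and at -0.58 without Control replicate 2. Cxcl13, which guides B cells, was at 1.21 (edgeR adjusted p = 0.268) and its receptor gene Cxcr5 at -1.05 (0.522), or 0.86 without Control replicate 2. Of the atypical receptors 0 of 5 passed by edgeR and 1, Ccrl2, by DESeq2. Ccrl2, a receptor-like gene of activated leukocytes, had 1.54, 1.81 and 2.19 CPM in Cyr61 KO livers, against 3.57, 5.92 and 2.72 CPM in Control livers (-1.14 ± 0.40, SE, edgeR adjusted p = 0.120, the only 1 of the 5 with an unadjusted p under 0.05). Ackr2, which scavenges inflammatory CC chemokines, had 1.96, 1.81 and 2.89 CPM in Cyr61 KO livers, against 1.15, 2.86 and 1.36 CPM in Control livers (0.31 ± 0.47, SE, edgeR adjusted p = 0.685). Ackr1, Ackr3 and Ackr4 were at -0.50, -0.58 and 0.13 (edgeR adjusted p = 0.503, 0.512 and 0.884). For the 4 Ackr genes the groups overlapped.

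**Figure D4:**
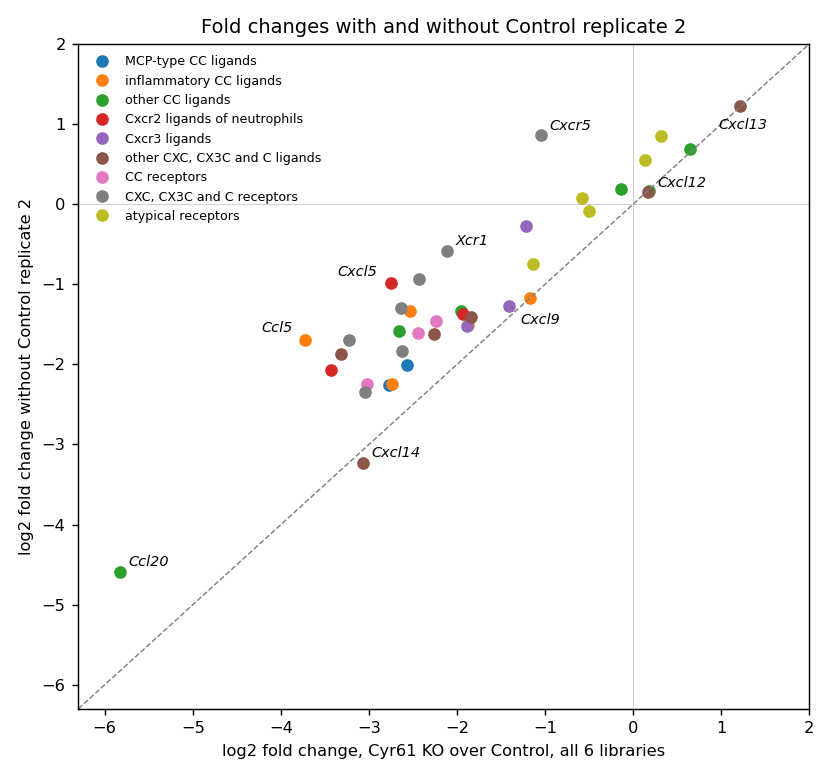
Log2 fold change of Cyr61 KO over Control for 40 of the 41 tested genes, with all 6 libraries on the horizontal axis and without Control replicate 2 on the vertical axis, coloured by role. The dashed line marks equal values. Most points left of 0 lie above the line, closer to 0 without that library, with Cxcr5 crossing to 0.86. Cxcl14 lies just below the line, and Cxcl12 and Cxcl13 lie close to it.

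The 21 genes left out by the filter had few or no counts. Ccl21a, Ccl21b, Ccl21c, Ccl26, Ccl27b and Cxcl15 had 0 counts in each library. A 0 in a single library still allows an expected count of up to about 3, and so does a 0 summed over a group. Ccl21a to Ccl21c and Ccl27b belong to families with near-identical copies, and reads that map to several positions are not counted in these tables. Ccl1 and Ccr10 had 0 counts over the Cyr61 KO libraries and 5 and 6 over the Control libraries. Of the Ccr10 counts, 5 were in Control replicate 2. With Cyr61 KO set at 3 counts over the group, Control was 1.68 and 2.01 times Cyr61 KO. These ratios take the Control counts as exact, so they are not lower bounds. Ccr9, a homing receptor of gut T cells, had 0, 5 and 5 counts in Cyr61 KO livers, against 9, 66 and 9 in Control livers. Ccl28, an epithelial chemokine gene of mucosa, had 2, 4 and 13 counts in Cyr61 KO livers, against 4, 96 and 2 in Control livers. In both genes Control replicate 2 was far above the other 5 libraries. The other 9, Cxcr1, Ccl11, Cxcl3, Cxcl17, Ccl17, Ccr3, Ccr4, Ccr6 and Ccr8, had at most 13 counts in a library.

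Several of the genes lie in clusters on GRCm38, in GENCODE M21. On chromosome 11 between 82035571 and 83664683 lie 11 of the CC ligand genes, among them Ccl2, Ccl7, Ccl5, Ccl9, Ccl6, Ccl3 and Ccl4. All 7 tested genes there had a negative log2 fold change, and 1 was called. On chromosome 5 between 90759360 and 92365485 lie 8 CXC ligand genes, from Cxcl5 to Cxcl11, and the 6 tested were likewise below 0, with 2 called. Another cluster, on chromosome 9, holds 10 receptor genes, Cx3cr1 among them, with 6 of the 7 tested below 0 and 1 called. Smaller clusters on chromosomes 4 and 8 had 2 of 2 tested genes each below 0. Of the 41 tested genes of the group 35 were below 0, against 7002 of all 13563 genes tested. A negative sign was thus common in the group as a whole, and an effect of location was not tested. Cxcl16 lies on chromosome 11 from 70453983 to 70459984, opposite Zmynd15. Cxcl14 lies on chromosome 13 from 56288643 to 56296551, Cx3cl1 on chromosome 8 from 94772009 to 94782427 and Ccl20 on chromosome 1 from 83116766 to 83119167. Members of a cluster were counted on their own reads and are not replicates of each other.

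The series title names NF-kB signalling, and several chemokine genes are known NF-kB or interferon targets, so the 250 bases before the annotated start were searched on both strands. The first motif, a form of the NF-kB site, was GGG followed by any 3 bases and TTCC, and the second, a form of the interferon response element, was GAAA followed by any 2 bases and GAAA. RefSeq promoters on GRCm38.p6 matched 46 of the 62 genes. The first motif was in 9 of the 55 promoters of these genes, against 4.65% of all 32851 promoters. These belonged to 9 genes, Cxcl1, Cxcl2, Cxcl10, Ccl9 and Ccl20 and the untested Ccl1, Ccr3, Ccr6 and Cxcl3. The second motif was in 3 of the 55, those of Ccl19, Cxcl10 and Cxcl14, against 2.98% of all promoters. Shown are 4 of the called genes and the neutrophil ligand genes Cxcl1 and Cxcl2, 5′ to 3′ on the gene's strand and ending at the base before the start, with matches in capitals.
Cxcl10: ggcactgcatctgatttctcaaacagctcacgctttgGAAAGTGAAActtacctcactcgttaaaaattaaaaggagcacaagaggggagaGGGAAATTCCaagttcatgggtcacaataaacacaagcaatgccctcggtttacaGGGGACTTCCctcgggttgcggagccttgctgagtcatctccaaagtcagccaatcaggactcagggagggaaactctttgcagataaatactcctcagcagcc
Ccl20: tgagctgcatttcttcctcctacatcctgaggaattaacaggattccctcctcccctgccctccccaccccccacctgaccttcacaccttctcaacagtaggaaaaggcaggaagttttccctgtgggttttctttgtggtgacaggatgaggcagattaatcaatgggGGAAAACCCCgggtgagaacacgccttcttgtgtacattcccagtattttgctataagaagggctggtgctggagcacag
Ccl9: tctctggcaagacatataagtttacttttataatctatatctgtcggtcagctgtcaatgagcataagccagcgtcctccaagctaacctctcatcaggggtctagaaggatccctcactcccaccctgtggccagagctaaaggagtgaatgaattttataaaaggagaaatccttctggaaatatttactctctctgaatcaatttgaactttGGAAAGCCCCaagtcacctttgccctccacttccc
Cxcl14: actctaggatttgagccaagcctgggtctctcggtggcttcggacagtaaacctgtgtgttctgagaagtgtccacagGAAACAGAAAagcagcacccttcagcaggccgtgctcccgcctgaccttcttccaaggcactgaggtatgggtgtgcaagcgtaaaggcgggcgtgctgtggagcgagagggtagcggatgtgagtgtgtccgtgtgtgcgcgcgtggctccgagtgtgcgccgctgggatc
Cxcl1: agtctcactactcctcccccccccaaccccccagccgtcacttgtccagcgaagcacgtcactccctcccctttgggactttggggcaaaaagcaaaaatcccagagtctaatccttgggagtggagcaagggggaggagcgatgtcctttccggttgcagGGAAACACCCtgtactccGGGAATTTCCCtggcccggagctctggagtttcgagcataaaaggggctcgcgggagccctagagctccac
Cxcl2: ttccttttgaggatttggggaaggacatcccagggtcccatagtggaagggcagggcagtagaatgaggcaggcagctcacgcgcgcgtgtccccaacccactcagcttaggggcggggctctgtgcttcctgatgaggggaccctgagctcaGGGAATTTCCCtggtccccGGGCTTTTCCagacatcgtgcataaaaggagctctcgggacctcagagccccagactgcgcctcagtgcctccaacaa
The Cxcl10 window (chr5:92348890-92349139, minus strand) held 2 matches to the first motif and 1 to the second. The windows of Ccl20 (chr1:83116516-83116765, plus strand) and Ccl9 (chr11:83578637-83578886, minus strand) held 1 match each to the first, on the opposite strand. The window of Cxcl14 (chr13:56296552-56296801, minus strand) held 1 match to the second. Those of Cxcl1 (chr5:90890995-90891244, plus strand) and Cxcl2 (chr5:90903649-90903898, plus strand) held 3 matches each to the first, of which a pair on opposite strands overlapped. No match to either motif was found in the windows of the called genes Cxcl9, Cx3cl1 and Cx3cr1, or of Cxcl12. The called gene Cxcl16 was not searched. A match describes the letters of the window and is not evidence of binding.

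The genes that act with chemokines were taken as 3 lists. Of 34 tested genes of intracellular signalling and migration 2 were called lower, Rgs1 at -2.93 ± 0.53 and Rgs2 at -1.95 ± 0.36 (SE, edgeR adjusted p = 0.0300 and 0.0317), which encode regulators that end G protein signals. All genes tested were called lower in 2.37% of cases. An unadjusted edgeR p under 0.05 was found for 21 of the 34, against 27.4% of all genes. DESeq2 called 15 of them lower, where it called 10.2% of all genes lower. Without Control replicate 2, 10 of the 34 reached that unadjusted p, against 23.7% of all genes, and DESeq2 called 5 lower. Without Control replicate 2 Rgs1 was at -2.37 and Rgs2 at -1.55, and Rgs1 alone of the list passed (edgeR adjusted p = 0.0494 and 0.0540). The list median was -1.34, against -0.03 for all genes, and -0.61 without Control replicate 2. Rgs1 had 0.594, 0.816 and 1.37 CPM in Cyr61 KO livers, against 6.21, 11.6 and 3.62 CPM in Control livers. Of 14 leukocyte adhesion genes 2 were called lower, Vcam1, the endothelial ligand of integrins, at -1.70 ± 0.31, and Itgax, an integrin of macrophages and dendritic cells, at -2.96 ± 0.57 (SE, edgeR adjusted p = 0.0300 and 0.0364). Without Control replicate 2 they were at -1.42 and -2.40 and neither passed (edgeR adjusted p = 0.0542 and 0.0716). In that setting edgeR called 0 of the 14, with 4 at an unadjusted p under 0.05, against 23.7% of all genes. DESeq2 without that library called 2, with 5 at an unadjusted p under 0.05, against 24.5% of all genes. The calls of DESeq2 over all 13647 genes tested in that setting are given in the section on processing, and 2 of 14 lies near their share. With all 6 libraries, 6 of the 14 had an unadjusted edgeR p under 0.05, against 27.4% of all genes. DESeq2 then called 6 lower, against 10.2% of all genes. The median of the adhesion list was -1.54, or -0.58 without Control replicate 2. Of 13 other chemoattractant genes and receptors 0 were called by edgeR, 5 reached an unadjusted p under 0.05, where 27.4% of all genes did, and 3 were lower and 1 higher by DESeq2. Over all genes DESeq2 called 16.8% in either direction and 10.2% lower. Pf4, a CXC chemokine gene of platelets whose symbol lies outside the naming rule, was at -2.17 (edgeR adjusted p = 0.0544), and S1pr1, the sphingosine phosphate receptor that guides lymphocytes and is abundant in endothelium, was at 0.96 (0.0642). Both were chosen after their values were known. Of the 61 genes in these lists, edgeR called 0, 0 and 19 without Cyr61 KO replicates 1, 2 and 3, and 1, 1 and 14 without Control replicates 1, 2 and 3. Where 0 were called, an unadjusted p under 0.05 was found for 19 and 20 of the 62 genes then tested, against 25.5% and 15.2% of all genes. DESeq2 on all 6 libraries called 25 of the 61, where it called 16.8% of all genes.

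Marker genes of liver cell types were summed by list, and the lists did not all move the same way. The 8 markers of monocyte-derived macrophages, among them Trem2, Gpnmb, Spp1 and Ly6c2, summed to 110 to 239 CPM in Cyr61 KO libraries and 407 to 1506 CPM in Control libraries, and 4 of 8 were called lower, or 2 without Control replicate 2. Spp1, which is also a cholangiocyte marker, gave 1113 of the 1506 CPM, and without it the list summed to 48.3 to 113 CPM in Cyr61 KO and 215 to 393 CPM in Control. Neutrophil markers summed to 2.73 to 6.84 CPM in Cyr61 KO and 15.6 to 66.4 CPM in Control, with 2 of the 4 tested called lower. T and NK cell markers summed to 3.62 to 3.90 CPM in Cyr61 KO and 7.12 to 75.7 CPM in Control, with 0 of 8 called by edgeR, 7 at an unadjusted p under 0.05 and 6 by DESeq2, all lower. B and plasma cell markers summed to 4.78 to 5.72 CPM in Cyr61 KO and 13.4 to 61.7 CPM in Control, with 1 of 6 called lower. Dendritic cell markers overlapped, at 4.72 to 6.36 CPM in Cyr61 KO and 6.03 to 29.4 CPM in Control, with 0 of 6 called by edgeR but 3 lower at an unadjusted p under 0.05 and by DESeq2. Kupffer cell markers overlapped too, at 230 to 626 CPM in Cyr61 KO and 616 to 704 CPM in Control, with 1 of 7 called lower and 1 higher, or 0 lower and 1 higher without Control replicate 2. Endothelial markers, at 163 to 239 CPM in Cyr61 KO and 114 to 196 CPM in Control, overlapped as well, with 2 of 7 called higher, or 1 without Control replicate 2. Hepatocyte markers summed to 104881 to 130443 CPM in Cyr61 KO and 40057 to 98894 CPM in Control, without overlap, and 1 of 7, Cyp2e1, was called higher (1.83, edgeR adjusted p = 0.0427). Cholangiocyte markers summed to 80.5 to 157 CPM in Cyr61 KO and 233 to 1365 CPM in Control, or without Spp1 to 18.7 to 31.0 CPM in Cyr61 KO and 40.7 to 252 CPM in Control, with 0 of 6 called by edgeR, 5 lower at an unadjusted p under 0.05 and 3 by DESeq2. Stellate cell and fibroblast markers summed to 226 to 411 CPM in Cyr61 KO and 536 to 861 CPM in Control, with 3 of 7 called lower. Over all marker lists 11 genes were lower and 4 higher by edgeR. Of all genes tested, edgeR called 2.37% lower and 1.07% higher. At an unadjusted p under 0.05 those shares were 16.1% and 11.3%, and DESeq2 called 10.2% of all genes lower. On leaving out Cyr61 KO replicates 1, 2 and 3 in turn, lower calls were 0, 2 and 11 and higher calls 0, 0 and 3. On leaving out Control replicates 1, 2 and 3 in turn, lower calls were 9, 8 and 27 and higher calls 0, 3 and 2. In the setting with no call of either kind, 29 markers were lower and 6 higher at an unadjusted p under 0.05. Of all genes, 25.5% reached that level there in either direction. In each of the others without a higher call, 5 markers were higher at that level. The shares of all genes in either direction were 15.2% without Cyr61 KO replicate 2 and 24.6% without Control replicate 1. Mesothelial markers overlapped, at 12.7 to 33.8 CPM in Cyr61 KO and 20.7 to 40.4 CPM in Control, with 0 of 4 called by edgeR or DESeq2 and 0 at an unadjusted p under 0.05. Control replicate 2 had the highest Control sum of every list named here except hepatocyte and Kupffer cell markers. None of the listed markers found in the tables was at 0 in all libraries. The part of these cell types in the chemokine results was not tested.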

How the data were processed

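Bulk liver RNA was measured in 3 Cyr61 KO and 3 Control libraries. The authors deposited raw read counts per gene. Trimmomatic 0.38, STAR 2.6.1a and the builds hg38 and mm10 are named, per the submitters' processing notes. The annotation release is not given in the sources used here. The reverse strand counts, which fit the directional kit of the labels, were analysed. Reads outside genes (4.27% to 25.7% of reads), in several genes (0.655% to 1.04%) or at several positions (3.74% to 19.4%) stayed out of library sizes. A deposited table of the series equalled the unstranded counts in all 62 of the genes described.

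A quasi-likelihood F test (edgeR 4.0.16, R 4.3.3, two-sided, group term only) was run on the counts after filterByExpr (minimum count 10, minimum total 15) and TMM, with Benjamini-Hochberg adjustment over 13563 genes and a threshold of 0.05. Dividing the size of a log2 fold change by the root of its F value gave the standard error. The fit was tested on simulated data. Every tested gene of the group could be named, with values of all libraries for called genes and the 2 of highest mean CPM in each role group, and values given for other genes were picked with the data in view. In the counts, 1 tested gene is included that is not reported here. The members and lists were chosen with earlier results of these data known. Alternatives were DESeq2 1.42.0, limma 3.58.1 voom with quality weights, other scalings and filters, unstranded counts, a replicate block and leaving out each library. DESeq2 without Control replicate 2 was added after seeing the data. Any 2 libraries differed by more than sampling noise (chi-square per degree of freedom of 54.9 or more).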

Additional observations from a re-analysis of the deposited data

Results flagged for a closer look

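Ackr4, the gene of an atypical receptor for Ccl19, Ccl21 and Ccl25, had reads on the strand opposite its own, in counts that the comparisons do not use. They averaged 63.9 CPM in Cyr61 KO libraries and 30.4 CPM in Control libraries, and the lowest Cyr61 KO library, at 56.4 CPM, was above the highest Control library, at 42.1 CPM. On its own strand Ackr4 was at 1.13, 0.674 and 1.07 CPM in Cyr61 KO livers, against 0.646, 1.31 and 0.681 CPM in Control livers. Acad11 overlaps Ackr4 on the opposite strand in GENCODE M21, and it was at 521 ± 24.9 CPM in Cyr61 KO livers and 260 ± 120 CPM in Control livers (SD, n = 3 each, log2 fold change 1.00, edgeR adjusted p = 0.143). The source of the opposite-strand reads was not tested.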

How the results depend on the processing

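Of the chemokine and receptor genes, 28 were called by DESeq2 and 28 by voom with quality weights, all lower, against 8 by edgeR. The count was 21 with no filter on low counts, 0 with library totals as the only scaling, and 7 each with DESeq2 size factors, a CPM of at least 1 in 3 libraries and unstranded counts. Leaving out 1 library gave 0 to 23, and DESeq2 without Control replicate 2 gave 16. The pathway lists, with 4 calls, had 25 by DESeq2, 33 by voom, 9 with no filter, 0 with library totals, 0 to 19 on leaving out 1 library and 9 by DESeq2 without Control replicate 2. All genes, with 467 calls, had 2273, 4483, 944 and 50 in the same settings, 7 to 878 on leaving out 1 library, and 1536 by DESeq2 without Control replicate 2. Increases made up 31.0% of all calls by TMM, and 54.0% with library totals, 39.0% by DESeq2, 46.3% by voom and 43.0% without Control replicate 2. With library totals the median of all genes was -0.30 against -0.03. In a fit with the replicate number as a block, 14 genes of the group were called and the pathway and all-gene counts were 6 and 633. Same-numbered deviations correlated at -0.06, -0.24 and -0.45, and 0 of 3 Cyr61 KO libraries correlated best with their own number. With 3 libraries per group this cannot settle whether the numbers pair the libraries. None of the 8 called genes changed sign in any setting. Signs turned for genes that were not called. On leaving out 1 library Ccl27a ran from -0.58 to 0.19, being 0.07 and 0.05 without Cyr61 KO replicates 2 and 3 and highest without Control replicate 2. Ackr3 ran from -0.88 to 0.077, Cxcr5 from -1.56 to 0.86 and Ackr4 from -0.0052 (without Control replicate 3) to 0.56, each highest without Control replicate 2. Ccl24 ran from -0.17 without Cyr61 KO replicate 1 to 0.38. By DESeq2 without Control replicate 2 Ccl27a, Ackr3 and Cxcr5 were at 0.17, 0.053 and 0.84. With library totals Cxcl12, Ackr2, Ccl24 and Ackr4 were at -0.10, -0.037, -0.11 and -0.22, and by voom Ackr3, Ccl24 and Cxcr5 at 0.0031, -0.13 and 0.67. The cause of these differences was not tested. Ccl20 and the 21 untested genes rest on few counts.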

Other observations

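Control replicate 2 also carried most of the counts of the mucosal chemokine gene Ccl28 and of the gut-homing receptor gene Ccr9. Of the 6 pancreas and gut genes listed, Dmbt1, a gene of mucosal and ductal epithelium, was at 1151 CPM in that library, against at most 0.355 CPM in the Cyr61 KO libraries and 0.449 and 0.124 CPM in the other Control libraries. The other 5 genes of that list summed to 82.4 to 137 CPM in Cyr61 KO and 89.2 to 108 CPM in Control, with 97.3 CPM in Control replicate 2. These genes were picked after their values were seen, and whether the values share a source was not tested.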
